A study of Mus musculus with 8 samples.

Results

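Activating transcription factor 4 (ATF4) and 9 genes of the response it leads were followed in mouse liver with 1 or 2 copies of Mtap. The 10 genes were Atf4, Atf3, Atf5, Ddit3, Trib3, Asns, Chac1, Nupr1, Sesn2 and Eif4ebp1. They were chosen by name, with earlier results of these data known. Every probe set (the group of array probes read as 1 measurement) annotated with exactly 1 of these symbols was kept. This gave 19 probe sets for the 10 genes, out of 45037 probe sets tested and 18194 genes with a probe set of 1 symbol. Trib3, Ddit3, Asns, Nupr1 and Sesn2 had a pair of probe sets each, Atf4 and Eif4ebp1 had 3, and Atf3, Atf5 and Chac1 had 1.

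RNA came from the livers of 8 male C57BL/6 mice between 92 and 101 days of age. The labels give 4 of them the genotype MTAP+/-, heterozygous for Mtap, and the other 4 the genotype MTAP+/+, wild type. Mtap encodes methylthioadenosine phosphorylase, which returns the by-product of polyamine synthesis to methionine and adenine. No treatment, diet or time of collection is given in the sources used here, nor is the form of the mutant allele. Each mouse was measured once on 1 Affymetrix expression array. Values are log2 signals, so a difference of 1 is a doubling, and every difference below is the MTAP+/- mean minus the MTAP+/+ mean.

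When an essential amino acid runs short, uncharged tRNA activates the kinase GCN2, which phosphorylates the initiation factor eIF2α. The kinase PERK does the same when unfolded protein builds up in the endoplasmic reticulum. Bulk translation then slows while Atf4 mRNA is translated more, so much of the control of ATF4 is not visible at the RNA level. ATF4 protein pairs with C/EBP proteins on C/EBP-ATF response elements and raises genes for amino acid synthesis, uptake and tRNA charging, and further transcription factors such as CHOP, the product of Ddit3. In liver this programme is known from diets that lack an amino acid and from secretory stress.

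The core of the C/EBP-ATF response element is often written TGATGNAA, and these letters were searched on both strands of RefSeq promoter windows (build GRCm38.p6) that run from 250 bases before to 50 bases after each gene's start. They occurred in 1304 of 32851 windows, which is 3.97%. Of the 9 member genes with a window, Asns, Atf3, Chac1, Nupr1 and Trib3 held the letters, and Atf4, Atf5, Ddit3 and Sesn2 did not. Sequence outside the windows was not searched, so a window without the letters does not show that a gene lacks the element. The 4 matches that lie before the start are shown because the same short core stands in genes whose array values behaved differently. Each sequence reads 5′ to 3′ on the gene's strand, with the core in capitals.
Asns: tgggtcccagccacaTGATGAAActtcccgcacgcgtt
Atf3: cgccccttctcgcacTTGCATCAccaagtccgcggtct
Chac1: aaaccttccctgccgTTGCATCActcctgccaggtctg
Nupr1: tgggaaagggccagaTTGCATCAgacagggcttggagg
The Asns stretch is chr6:7693210-7693247 on the minus strand, and its core begins 23 bases before the start on the gene's own strand. The Atf3 stretch is chr1:191183421-191183458 on the minus strand, with the core 110 bases before the start on the opposite strand. The Chac1 stretch is chr2:119351034-119351071 on the plus strand, with the core 193 bases before the start on the opposite strand. The Nupr1 stretch is chr7:126625558-126625595 on the minus strand, with the core 110 bases before the start on the opposite strand. A match to these letters is a description of the window and was not measured as a binding site here.

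The labels and tissue were checked first. All 4 Mtap probe sets were lower in MTAP+/- livers with no overlap between genotypes, at 57.6%, 35.3%, 32.2% and 49.9% of the MTAP+/+ signal (limma adjusted p 0.0314, 0.0314, 0.0414 and 0.00443). The 6 measured hepatocyte markers, among them Alb and Ttr, had a mean log2 signal between 13.64 and 13.71 in MTAP+/- livers and between 13.62 and 13.70 in MTAP+/+ livers. A clock score, the mean of 7 clock genes known to peak late in the day minus the mean of 5 that peak late in the night, ran from 1.22 to 2.36 in MTAP+/- livers and from -0.01 to 0.98 in MTAP+/+ livers. The genotypes did not overlap in it, and with no collection time given, genotype and the clock state of the livers cannot be told apart. MTAP+/- replicate 2 had the lowest difference between 3′ and 5′ control probe sets, 0.713 against 0.880 to 1.12 in the other livers. It also lay farthest out on the second principal component over all probe sets. No member probe set was called with all livers or with any liver left out, so no call could depend on 1 liver. Some differences, those of Asns among them, moved by more than 1.5 times when a liver was left out. Some of these moves are given beside the genes they touch. Those that gave both signs are listed with the processing alternatives at the end.

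No member probe set passed the threshold of adjusted p under 0.05 in limma, with adjusted p between 0.390 and 0.977. Over all probe sets 16 of 45037 passed, which is 0.0355%. At an unadjusted p under 0.05 there were 2 member probe sets, 10.5% of the 19, where 8.41% of all probe sets had such a p. The genotypes did not overlap in 1 member probe set, 5.26% of the 19, where the share over all probe sets was 4.35%. The means were lower in MTAP+/- livers for 12 member probe sets (63.2%) and higher for 7, and 52.7% of all probe sets were lower. The median difference was -0.08 over the members and -0.01 over all probe sets. In absolute size the median difference was 0.106 for the members and 0.1002 for all probe sets, so the members' shares and sizes lay near those of the whole array.

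**Figure D1:**
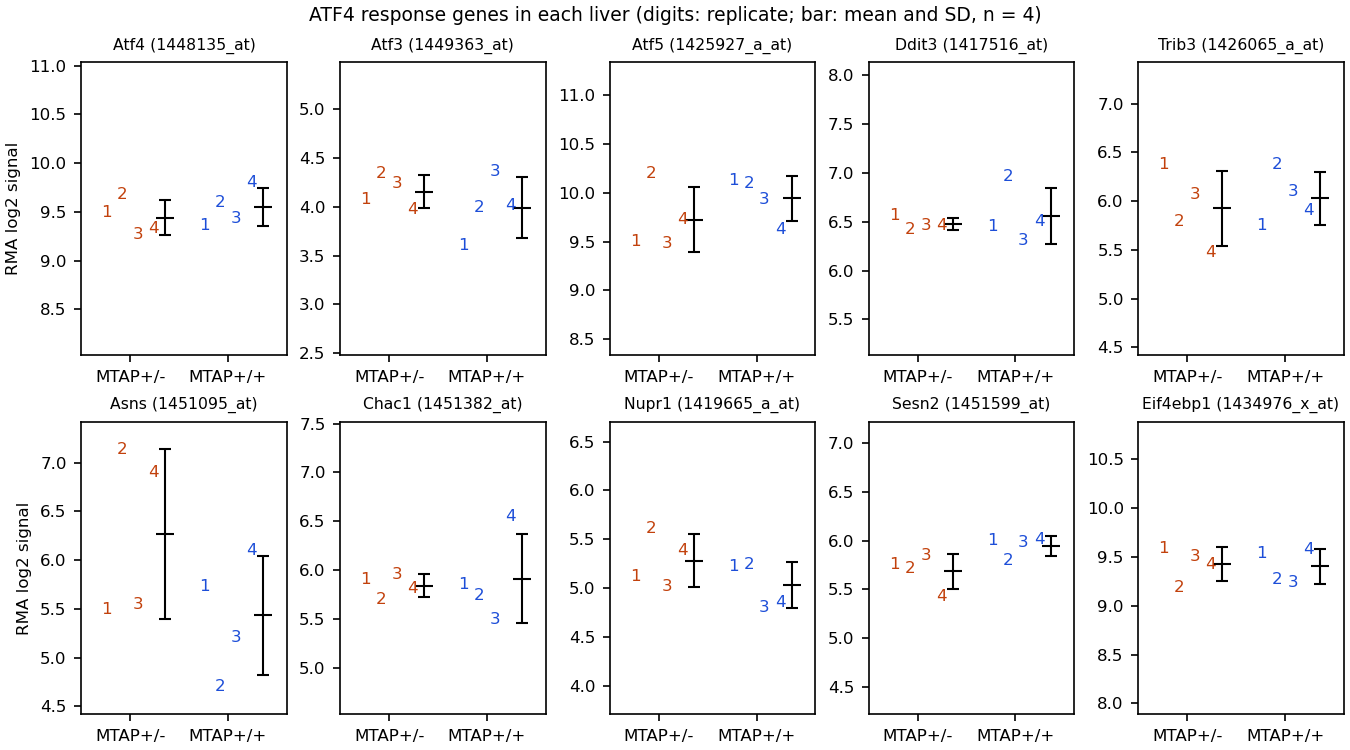
Log2 signal of the brightest probe set of each of the 10 genes in each liver, with MTAP+/- livers left of MTAP+/+ livers in each panel; each digit is the replicate number of 1 liver, and bars are the mean and SD of 4 livers. The groups overlap in every panel, and the livers lie farthest apart for Asns, between 4.70 and 7.14.

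Atf4, the factor at the head of the response, came first among the transcription factors. Its brightest probe set, 1448135_at, read 9.50, 9.68, 9.27 and 9.33 in MTAP+/- livers and 9.36, 9.60, 9.44 and 9.80 in MTAP+/+ livers. The groups overlapped almost fully, with means of 9.44 ± 0.18 and 9.55 ± 0.19 (SD, n = 4 each). The difference was -0.11 ± 0.13 (SE), with a 95% interval of -0.39 to 0.18 and an adjusted p of 0.877. It was nearest to 0 without MTAP+/+ replicate 4 (-0.02) and farthest without MTAP+/- replicate 2 (-0.18).

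The Atf4 probe set 1438992_x_at read 7.39, 7.79, 7.31 and 7.51 in MTAP+/- livers and 7.80, 8.03, 7.83 and 7.997 in MTAP+/+ livers. It was the 1 member probe set without overlap, and the gap between MTAP+/- replicate 2 and MTAP+/+ replicate 1 was 0.011. The difference was -0.41 ± 0.12 (SE), with a 95% interval of -0.68 to -0.15, and its adjusted p of 0.390 missed the threshold. Its interval leaves out 0 while that of the brightest probe set does not. The suffix _x_at marks probe sets whose probes can also match other transcripts, so its signal need not be Atf4 alone. A dim probe set, 1439258_at, lay between 3.67 and 3.99 in MTAP+/- livers and between 3.75 and 3.98 in MTAP+/+ livers, with a difference of -0.09. All 3 Atf4 probe sets had lower means in MTAP+/- livers.

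Atf5 encodes a relative of ATF4 whose mRNA is likewise translated more when eIF2α is phosphorylated. Its probe set read 9.50, 10.20, 9.48 and 9.72 in MTAP+/- livers and 10.13, 10.10, 9.93 and 9.63 in MTAP+/+ livers. MTAP+/- replicate 2 was the highest of all 8 while the other MTAP+/- livers were among the 4 lowest. The difference was -0.22 ± 0.17 (SE), with a 95% interval of -0.60 to 0.16 and an adjusted p of 0.786. Without MTAP+/- replicate 2 it was -0.38, and without MTAP+/- replicate 3 it was -0.14.

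Atf3 is a stress-induced repressor with low signal in resting liver. Its probe set read 4.07, 4.34, 4.23 and 3.97 in MTAP+/- livers and 3.60, 3.99, 4.36 and 4.01 in MTAP+/+ livers. Replicate 1 was the lowest MTAP+/+ liver and replicate 3 the highest of all 8. The difference was 0.16 ± 0.15 (SE), with an adjusted p of 0.833, at a signal near the array medians of 3.91 to 3.97, where differences are compressed. Without MTAP+/+ replicate 1 it was 0.0325, and without MTAP+/+ replicate 3 it was 0.28.

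Ddit3 encodes CHOP, the factor tied to cell death under lasting stress. Its brighter probe set read 6.56, 6.42, 6.46 and 6.46 in MTAP+/- livers and 6.45, 6.97, 6.30 and 6.50 in MTAP+/+ livers. The MTAP+/- livers lay close together, and MTAP+/+ replicate 2 stood above the rest. The difference was -0.08 ± 0.14 (SE, 95% interval -0.38 to 0.22, adjusted p 0.916), and the dimmer probe set, between 3.12 and 3.69 over all livers, also differed by -0.08.

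The targets that feed back on signalling came next. Trib3 encodes a pseudokinase that binds ATF4 and CHOP and dampens their activity. Its brighter probe set read 6.37, 5.79, 6.07 and 5.47 in MTAP+/- livers and 5.75, 6.37, 6.10 and 5.91 in MTAP+/+ livers. Both genotypes spanned most of the range, and the difference was -0.10 ± 0.19 (SE, adjusted p 0.925). The other Trib3 probe set differed by -0.21 ± 0.24 (SE, adjusted p 0.864), and by -0.0251 without MTAP+/- replicate 4.

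Sesn2 encodes sestrin 2, a leucine sensor that holds back TORC1, the kinase complex that promotes protein synthesis. Its brighter probe set read 5.75, 5.71, 5.85 and 5.43 in MTAP+/- livers and 6.00, 5.79, 5.98 and 6.01 in MTAP+/+ livers. MTAP+/+ replicate 2 lay among the MTAP+/- values, and the other MTAP+/+ livers lay above all MTAP+/- livers. The means were 5.69 ± 0.18 and 5.95 ± 0.10 (SD, n = 4 each). The difference of -0.26 ± 0.11 (SE) had a 95% interval of -0.51 to -0.02 and an adjusted p of 0.566. The second probe set differed by -0.18 ± 0.13 (SE, adjusted p 0.748), and by -0.0888 without MTAP+/- replicate 1.

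Eif4ebp1 encodes 4E-BP1, which binds the cap-binding protein eIF4E and restrains translation. Its brightest probe set, 1434976_x_at, read 9.59, 9.19, 9.51 and 9.42 in MTAP+/- livers and 9.54, 9.27, 9.24 and 9.57 in MTAP+/+ livers. The groups covered the same range. The difference was 0.02 ± 0.12 (SE), with a 95% interval of -0.25 to 0.29 and an adjusted p of 0.977. The probe set 1417562_at, at 8.91 to 9.31, differed by 0.10 and the dim 1417563_at by -0.08, so Eif4ebp1 was the 1 gene whose probe sets differed in sign.

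Chac1 encodes an enzyme that breaks down glutathione. Its probe set read 5.90, 5.69, 5.96 and 5.81 in MTAP+/- livers and 5.85, 5.74, 5.49 and 6.55 in MTAP+/+ livers. MTAP+/+ replicate 4 was the highest and replicate 3 the lowest, so the MTAP+/- livers lay inside the MTAP+/+ range. The difference was -0.07 ± 0.19 (SE, 95% interval -0.50 to 0.36, adjusted p 0.954).

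Nupr1 encodes a small stress-induced chromatin protein. Its brighter probe set read 5.11, 5.61, 5.02 and 5.38 in MTAP+/- livers and 5.22, 5.24, 4.80 and 4.85 in MTAP+/+ livers. MTAP+/- replicates 2 and 4 lay above all MTAP+/+ livers. The difference was 0.25 ± 0.16 (SE, 95% interval -0.10 to 0.60, adjusted p 0.717), and the other probe set differed by 0.09 ± 0.17 (SE, adjusted p 0.927). Without MTAP+/- replicate 2 the brighter probe set differed by 0.14.

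Asns encodes asparagine synthetase, the amino acid enzyme long used as a readout of this pathway. Its brighter probe set, 1451095_at, read 5.49, 7.14, 5.54 and 6.89 in MTAP+/- livers and 5.73, 4.70, 5.20 and 6.09 in MTAP+/+ livers. MTAP+/- replicates 2 and 4 were above every MTAP+/+ liver, and MTAP+/- replicates 1 and 3 lay within the MTAP+/+ range. The means were 6.27 ± 0.87 and 5.43 ± 0.61 (SD, n = 4 each). The difference of 0.83 ± 0.41 (SE) corresponds to a 1.78-fold ratio with a 95% interval of 0.951 to 3.34, and the adjusted p was 0.630. It lay between 0.54 and 1.09 when each liver was left out in turn, lowest without MTAP+/- replicate 2, so that liver moved it by more than 1.5 times.

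The second Asns probe set, 1433966_x_at, read 2.90, 6.39, 3.35 and 5.16 in MTAP+/- livers and 3.90, 2.43, 3.52 and 4.16 in MTAP+/+ livers. The same MTAP+/- replicates 2 and 4 were highest, and the other MTAP+/- livers lay below 3 of the 4 MTAP+/+ livers. The difference was 0.95 ± 0.68 (SE, 95% interval -0.56 to 2.45, adjusted p 0.762). Leaving out each liver in turn gave 0.30 to 1.46, with the lowest value without MTAP+/- replicate 2. The Asns probe sets were the only members whose difference exceeded 0.5 in absolute size, and the largest among the rest was 0.41.

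**Figure D2:**
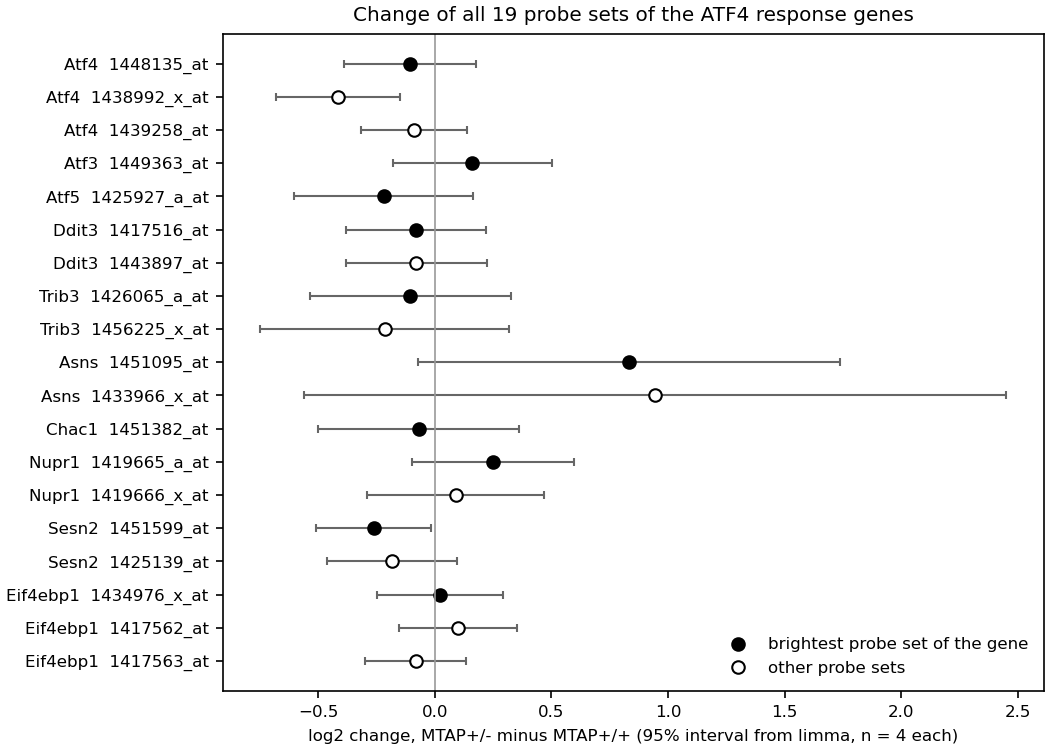
Difference in log2 signal, MTAP+/- minus MTAP+/+, of all 19 member probe sets; points are limma estimates, bars are 95% intervals, and filled points are the brightest probe set of each gene. The intervals of 1 Atf4 and 1 Sesn2 probe set lie below 0, and those of both Asns probe sets are the widest.

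What set Asns apart among the members was how much the livers differed from each other. Over all 8 livers the SD of its brighter probe set was 0.826, and the highest liver had 5.41 times the signal of the lowest. Among 4240 probe sets within 0.5 log2 units of its mean, 98.6% had a smaller SD. The other Asns probe set had an SD of 1.28, with its lowest livers at 2.43 and 2.90, below the array medians of 3.91 to 3.97, so the size of its range is uncertain. For the other members' brightest probe sets the SD was 0.313 for Trib3, 0.310 for Chac1, 0.291 for Atf5, 0.269 for Nupr1 and 0.246 for Atf3. It was 0.196 for Ddit3, 0.195 for Sesn2, 0.184 for Atf4 and 0.162 for Eif4ebp1. Asns also ranked first on the linear scale, with a coefficient of variation of 61.4%. These spreads include the difference between genotypes and describe the livers without a test.

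**Figure D3:**
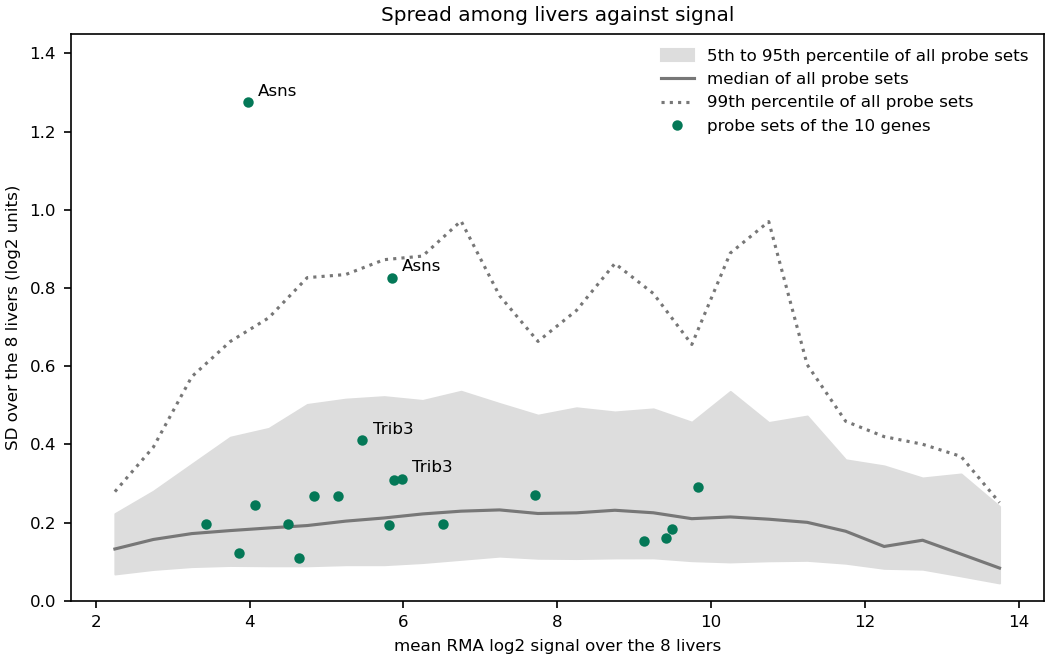
SD of log2 signal over the 8 livers against mean log2 signal, with each member probe set as a point and the median, 5th to 95th percentile band and 99th percentile of all probe sets as grey lines and shading. Both Asns probe sets lie near the top of the spread at their signal, at SDs of 0.826 and 1.28.

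Different probe sets of 1 gene allow a check on whether such liver-to-liver differences are in the RNA or in single probe sets. The Asns probe sets followed each other over the 8 livers with Pearson's r = 0.954 (exact permutation p 0.000273, adjusted 0.0030 over the 11 within-gene pairs) and Spearman's rho = 0.929. Without the 2 livers farthest from the median, r was 0.863. The Trib3 probe sets gave r = 0.923 and rho = 0.905 (exact permutation p 0.00166 for r, adjusted 0.00771), and r was 0.797 without the 2 farthest livers. For Nupr1 r was 0.901 and rho 0.857 (exact permutation p 0.00275 for r, adjusted 0.00771), with 0.887 without the 2 farthest. The 2 bright Eif4ebp1 probe sets gave r = 0.948 and rho = 0.857 (exact permutation p 0.0028 for r, adjusted 0.00771), with 0.924 without the 2 farthest. Probe sets of 1 gene can share probes or nearby sequence, and the sources used here do not give their positions. For Atf4 the 2 brighter probe sets gave r = 0.683 and rho = 0.619 (exact permutation p 0.0665 for r, adjusted 0.146), which missed the threshold. The other 6 within-gene pairs had r between -0.387 and 0.371, and none of them passed. They were Ddit3 (0.371, rho 0.690), Sesn2 (0.299, rho 0.119), Atf4 with its dim probe set (-0.361 and -0.02) and Eif4ebp1 with its dim probe set (-0.355 and -0.387). Without the 2 farthest livers r was 0.785 for Ddit3, 0.614 for Sesn2, 0.595 and 0.06 for Atf4 and 0.01 and -0.671 for Eif4ebp1. Each of these pairs held a probe set with a mean signal under 5, as did the Asns and Nupr1 pairs. The part of low signal was not tested. Agreement between probe sets thus passed the threshold in 4 of 11 pairs.

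Between genes, correlations over the livers lay on both sides of 0. Among 45 pairs of brightest probe sets, 23 correlations were above 0 and 22 below, with a range from -0.808 to 0.703 and a median of 0.01. None had an adjusted permutation p under 0.05 for r, where the smallest was 0.380 and 2 pairs had an unadjusted one. For rho the smallest adjusted p was 0.241. Atf4 with the other 9 gave r between -0.171 and 0.446. Asns and Trib3 ran in opposite directions, with r = -0.808 and rho = -0.857 (exact permutation p 0.0161 and 0.0107, adjusted 0.380 for r and 0.241 for rho). Without MTAP+/- replicate 4 and MTAP+/+ replicate 2, the farthest from the median in Trib3, r was -0.601, and with the genotype means removed it was -0.858. Chac1 and Eif4ebp1 gave r = 0.703 and rho = 0.857 (exact permutation p 0.0169 for r, adjusted 0.380), with 0.906 without the 2 farthest livers.

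**Figure D4:**
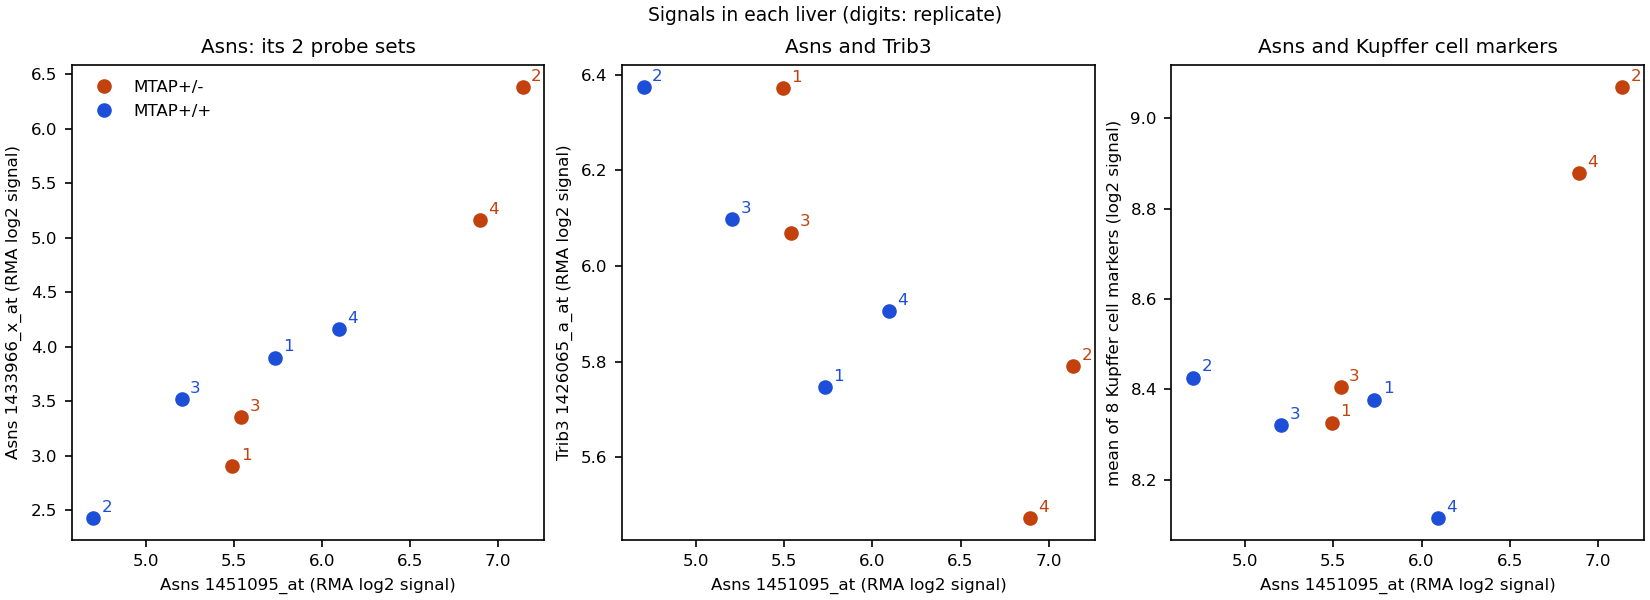
Log2 signal of Asns probe set 1451095_at in each of the 8 livers against its second probe set, Trib3 and the mean of the Kupffer cell markers; each point is 1 liver, coloured by genotype and marked with its replicate number. MTAP+/- replicates 2 and 4 have the highest Asns signal, 7.14 and 6.89, and the highest marker means, 9.07 and 8.88.

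Those MTAP+/- livers also had the highest mean signal of Kupffer cell and macrophage markers. The mean of the 8 markers, such as Clec4f and Adgre1, was 8.33, 9.07, 8.41 and 8.88 in MTAP+/- livers and 8.38, 8.43, 8.32 and 8.11 in MTAP+/+ livers. Of the 8 markers 6 were higher in MTAP+/- livers, 4 with an unadjusted p under 0.05 in limma and none past the adjusted threshold. Those 4 were Adgre1 (0.78), Mpeg1 (0.65), Cd68 (0.54) and Cd5l (0.42). Marco differed by 0.72 (unadjusted p 0.506 in limma) and Vsig4 by 0.05, and Clec4f (-0.27) and Csf1r (-0.02) were lower. The median difference of the 8 markers was 0.48, and the markers did not all rise. Asns followed the mean of the 8 markers with r = 0.730 and rho = 0.381 (exact permutation p 0.0442 for r, adjusted 0.218 over 5 relations). Without MTAP+/- replicates 2 and 4 r was -0.705, so the relation rested on those livers. With the clock score r was 0.361, with the 3′ to 5′ control difference -0.277, and with the first and second principal components -0.07 and -0.644. Their adjusted permutation p lay between 0.218 and 0.859. Without the 2 livers farthest out in each measure, r was 0.801, 0.398, -0.36 and -0.451 in that order. With the genotype means removed it was -0.294, -0.447, 0.157 and -0.421, and 0.602 for the marker mean. Markers of exocrine pancreas, a tissue with high Asns, had a mean of 5.35 to 5.66 in MTAP+/- livers and 5.62 to 5.77 in MTAP+/+ livers over 5 measured genes. Cela1 carried that gap, with a difference of -0.55, and the others differed by -0.08 to 0.08. Single markers of further cell types were also high in MTAP+/- replicate 2 or 4, but their lists were mixed. Lyve1, of sinusoidal endothelium, read 7.74 and 7.60 in MTAP+/- replicates 2 and 4 and at most 6.75 elsewhere. The neutrophil gene S100a9 read 7.66 in MTAP+/- replicate 4 and at most 5.87 elsewhere. Between genotypes the other endothelial markers differed by -0.17 (Pecam1) to 0.23 (Cdh5). Of the other neutrophil markers, S100a8 differed by 0.71, Ngp by 0.12, Camp by -0.01 and Mpo by -0.09. The part of other cells in the Asns values was not tested, and in bulk RNA more cells of a type cannot be told from more RNA per cell.

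The genes most like a member over the 8 livers were named by Pearson's r among probe sets with a mean signal of at least 6. The rule took the member of largest SD with such a mean, which was Atf5. Chd4 (r = 0.975), Dbnl (0.972), Chn2 (0.969), Rps2 (0.969) and Bcas2 (0.965) were nearest to it of 10276 probe sets. Asns, whose mean of 5.85 fell below that minimum, was added after its values were seen. Nearest to Asns were Lmna (r = 0.979), Ccnd2 (0.963), Cds2 (0.961), Esam (0.958) and Ldlrad3 (0.952) of 10277 probe sets. With 8 livers and this many probe sets, high values of r occur among unrelated genes, and these names are a description.

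The rest of the pathway was read from gene lists, with each gene by its brightest probe set. These lists too were chosen with earlier results of these data known. None of these list genes passed the adjusted threshold in limma. For comparison, 9.35% of the 18194 genes had an unadjusted p under 0.05, 4.64% had genotypes that did not overlap, and 54.7% were lower in MTAP+/- livers. The median difference over all genes was -0.02 and that of the 10 member genes was -0.07, with 6 lower and 4 higher.

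Upstream of ATF4, 10 of 14 genes for the eIF2α kinases, eIF2B and their regulators were lower in MTAP+/- livers and 4 were higher, with a median of -0.14. Of these, 3 had an unadjusted p under 0.05, and the same number of genes had no overlap. Impact, which encodes an inhibitor of GCN2, read 6.80, 6.80, 6.73 and 6.67 in MTAP+/- livers and 6.07, 6.14, 6.27 and 6.35 in MTAP+/+ livers. It lay higher in every MTAP+/- liver, by 0.54 ± 0.10 (SE, adjusted p 0.127). Its other probe sets, at mean signals of 4.60 and 2.92, differed by 0.30 and 0.12. Eif2ak3, which encodes PERK, read 4.90, 5.40, 4.86 and 4.83 in MTAP+/- livers and 5.71, 5.98, 5.45 and 5.59 in MTAP+/+ livers. It lay lower in every MTAP+/- liver, by a difference of -0.68 ± 0.15 (SE, adjusted p 0.238). Its other probe sets, at low mean signals of 2.76 and 2.91, differed by -0.09 and 0.13. Eif2b4 and Eif2b2, subunits of the exchange factor that eIF2α phosphorylation blocks, differed by -0.34 and -0.29. Eif2b4 differed by -0.22 without MTAP+/+ replicate 1, and with the clock score as a covariate by -0.0787, Impact by 0.31 and Eif2ak3 by -0.81.

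Of the 13 genes for aminoacyl-tRNA synthetases and tRNA export, which ATF4 raises when amino acids run short, 11 were lower in MTAP+/- livers and 2 higher, with a median of -0.19. An unadjusted p under 0.05 was found for 4, all lower, and 1 had no overlap. Aars, which charges alanine tRNA, read 8.99, 9.23, 9.39 and 9.16 in MTAP+/- livers and 9.87, 9.42, 9.57 and 9.58 in MTAP+/+ livers. The groups did not overlap, and the difference was -0.42 (adjusted p 0.390). Tars differed by -0.59 (adjusted p 0.482), by -0.39 without MTAP+/+ replicate 2 and by -0.16 with the clock score as a covariate. Mars1 differed by -0.29 and the tRNA exporter Xpot by -0.24, with -0.05, -0.13 and -0.01 in the other Xpot probe sets.

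The 9 amino acid transporters were split, with 4 higher, 5 lower and a median of -0.05. Slc38a2, which encodes the glutamine carrier SNAT2, read 9.04, 8.61, 9.29 and 9.22 in MTAP+/- livers and 7.71, 8.43, 8.57 and 8.91 in MTAP+/+ livers. Its other probe sets, at mean signals of 6.84 and 3.65, differed by 0.63 and -0.07. In the brightest, only MTAP+/+ replicate 4 lay within the MTAP+/- range, and the difference was 0.64 (adjusted p 0.503). It was 0.40 without MTAP+/+ replicate 1 and 0.15 with the clock score as a covariate. Slc7a1 differed by 0.27 (-0.04 and 0.18 in its other probe sets), Slc7a3 by -0.12 and Slc1a4 by -0.24 (0.10 and -0.00).

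Of 11 genes for serine, one-carbon and amino acid synthesis, 5 were higher and 6 lower, with a median of -0.03. Shmt2, the mitochondrial serine hydroxymethyltransferase, differed by -0.48 (adjusted p 0.421) without overlap. Its other probe sets differed by -0.45, -0.43 and -0.38. Gpt2, an alanine aminotransferase, differed by -0.29, also without overlap, and by -0.18 without MTAP+/- replicate 4. Psat1 of serine synthesis differed by 0.23, with -0.10 in its other probe set, and Cth of cysteine synthesis by -0.16.

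Of 13 further ATF4 targets, 8 were higher and 5 lower, with a median of 0.06. Ddit4, which encodes the TORC1 inhibitor REDD1, read 5.78, 6.37, 5.59 and 5.95 in MTAP+/- livers and 7.67, 6.96, 7.59 and 6.52 in MTAP+/+ livers. It was lower in every MTAP+/- liver, by a difference of -1.26 ± 0.25 (SE, adjusted p 0.184), and the difference was -0.40 with the clock score as a covariate. Vegfa differed by 0.32 (-0.22 in its other probe set), Gadd45a by 0.45 and the autophagy receptor Sqstm1 by -0.30.

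Among 10 genes for partners of ATF4, 7 were higher and 3 lower, with a median of 0.06. Fos, an immediate early gene, differed by 1.34 (adjusted p 0.372) without overlap. Cebpg, which encodes a C/EBP partner of ATF4, differed by 0.17, Atf2 by 0.13 (-0.10 to 0.16 in its other probe sets) and Jun by -0.33 (0.06 in its other probe set). The 12 immediate early genes as a group had a mean of 6.16 to 6.45 in MTAP+/- livers and 5.98 to 6.19 in MTAP+/+ livers, with 8 higher. This list holds Fos and Jun, and its part in their values was not tested.

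The 10 TORC1 and 4E-BP relatives were split evenly, with 5 higher and 5 lower. Castor2, an arginine sensor relative, differed by -0.32 (-0.57 to 0.06 in its other probe sets), and Tsc1 differed by 0.27. Eif4ebp2 differed by 0.21 (-0.31 to 0.18 in its other probe sets) and Mtor by 0.11 (-0.08 and -0.13). Of 7 relatives of Trib3, Chac1 and Nupr1 and of the ATF family, 5 were higher and 2 lower. Trib2 read 3.88, 3.96, 3.92 and 4.39 in MTAP+/- livers and 3.71, 3.41, 3.49 and 3.73 in MTAP+/+ livers. That is a difference of 0.45 (adjusted p 0.390) at low signal. Its other probe sets, at still lower mean signals of 2.62 and 2.38, differed by -0.03 and -0.13. Trib1 differed by 0.41, Chac2 by 0.25 and Nupr1l by -0.17.

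The other branches of the unfolded protein response, led by ATF6 and IRE1, gave 10 lower and 4 higher of 14 genes, with a median of -0.18. An unadjusted p under 0.05 was found for 5, of which 4 were lower, and those 4 had no overlap. The 1 that was higher was Atf6, by 0.37 (adjusted p 0.492), with overlap. Dnajb9, an endoplasmic reticulum co-chaperone, read 8.91, 9.23, 9.23 and 8.98 in MTAP+/- livers and 9.70, 10.12, 10.06 and 10.17 in MTAP+/+ livers. The lowest MTAP+/+ liver lay above the highest MTAP+/- livers, and the difference was -0.93 ± 0.13 (SE, adjusted p 0.0575). Creld2, Manf and Hspa5 differed by -0.68, -0.66 and -0.61, and the other Hspa5 probe sets by -0.52 and 0.05. Of the rest, Xbp1, Hyou1, Hsp90b1, Edem1 and Calr lay between -0.10 and 0.06. Pdia4, Ern1, Sdf2l1 and Dnajc3 lay between -0.47 and -0.14. Ddit3, Trib3 and Chac1, which PERK also raises through ATF4, differed by -0.08, -0.10 and -0.07 in their brightest probe sets. Whether the lists differ from each other was not tested.

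**Figure D5:**
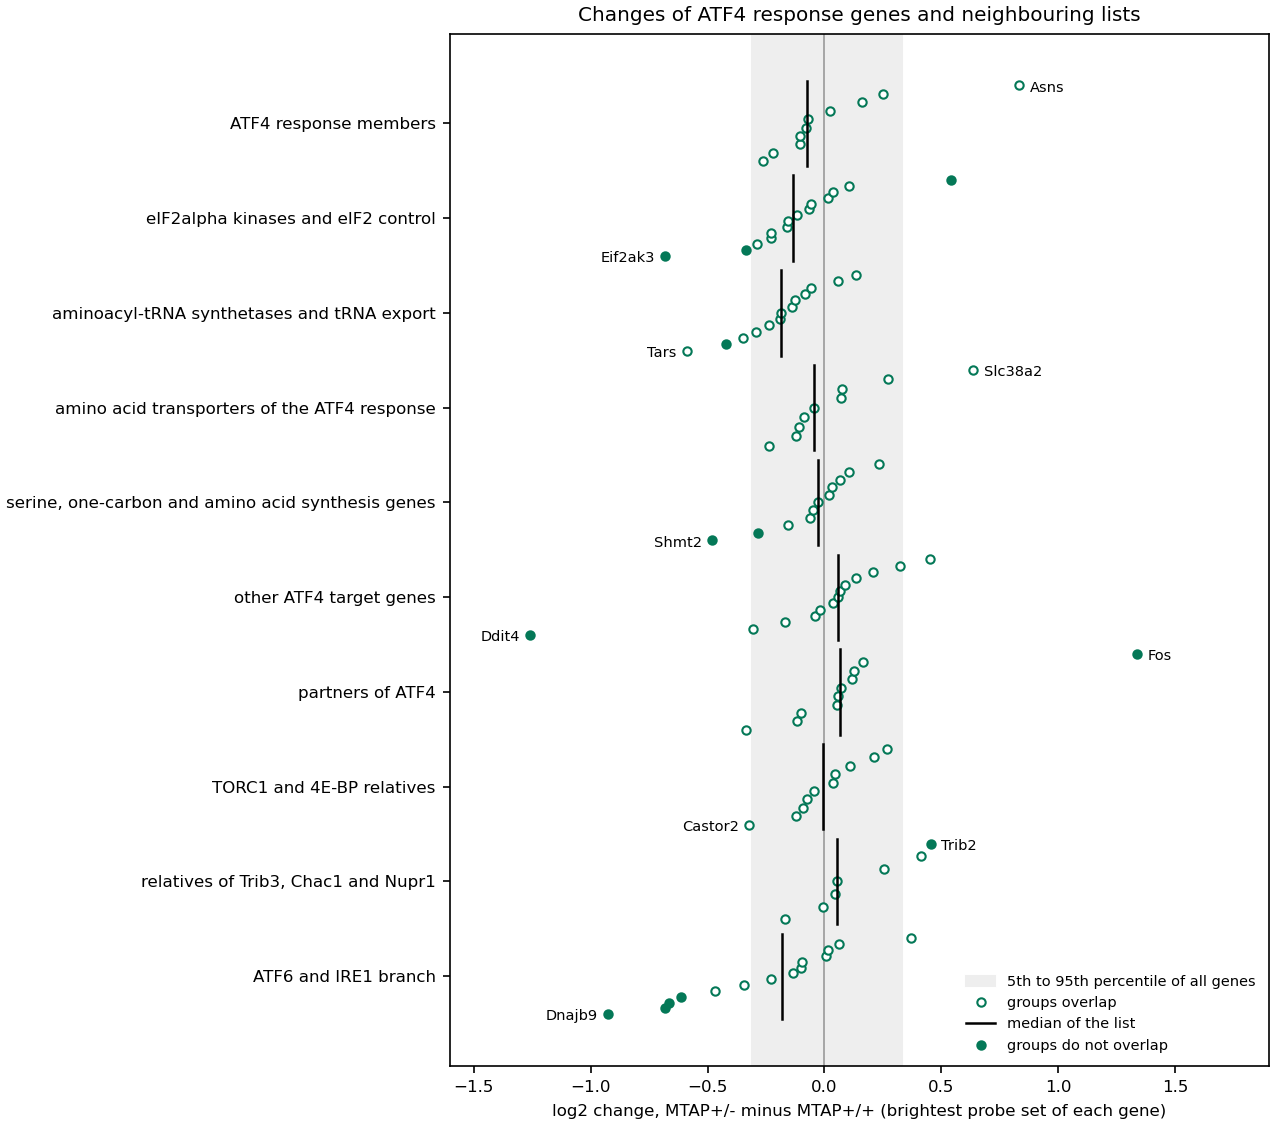
Difference in log2 signal, MTAP+/- minus MTAP+/+, of every measured gene in each pathway list by its brightest probe set; each point is 1 gene, filled where the genotypes do not overlap, vertical bars are list medians, the shading spans the 5th to 95th percentile of all genes (-0.31 to 0.33), and the gene with the largest absolute difference in each list is named. Medians lie between -0.19 for the aminoacyl-tRNA synthetases and 0.06, with Ddit4 at -1.26 and Fos at 1.34 farthest out.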

How the data were processed

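Liver RNA of 4 MTAP+/- and 4 MTAP+/+ mice was isolated with TRIzol and biotin-labelled, per the labels' protocols. The authors deposited 1 log2 value for each probe set and array, made with RMA per the submitters' processing notes, whose version is not given in the sources used here. RMA compresses differences at low signal. Control probe sets (64 of 45101) were left out. Genotypes were grouped by title and compared with limma 3.58.1 in R 4.3.3 (lmFit and eBayes, two-sided, genotype as sole term), with Benjamini-Hochberg adjustment over 45037 probe sets and a threshold of 0.05. All single-gene adjusted p come from this fit. The 8 arrays limit the precision, and nothing states how the mice were housed or collected.

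The platform annotation gave 1 symbol for 34945 probe sets. List genes are shown by their brightest probe set by mean over the 8 arrays, so their other probe sets are dimmer. Members are shown by every probe set. Of each list, up to 4 genes of smallest unadjusted p were named, and in some lists further genes. Members and lists were chosen with earlier results of these data known. Correlation p come from all orderings of 8 livers. On simulated data with 200 of 45037 probe sets changed, the fit recovered 0% of changes of 0.5 log2, 93.8% of 1 and 99.2% of 2. The changed probe sets were drawn at random, so these shares do not give the recovery for probe sets of large spread such as Asns. Alternatives covered filters, normalisation, eBayes settings, array weights, probe set choice, covariates, the replicate number and single livers.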

Additional observations from a re-analysis of the deposited data

Results flagged for a closer look

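The brighter Sesn2 probe set read 5.79 in MTAP+/+ replicate 2, below the other MTAP+/+ livers at 5.98 to 6.01. Its gap to the nearest was 0.876 of the group's range, past the limit of Dixon's test for 4 samples. It was 1 of 38 such tests, of which chance marks about 1 in 20. Without this liver the Sesn2 difference was -0.31, against -0.26 with it.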

How the results depend on the processing

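No member probe set passed adjusted p 0.05 under any alternative, and the smallest was 0.158 for Atf4 1438992_x_at without MTAP+/- replicate 2. The count over all probe sets, 16, was 9 without dim probe sets, 9 with the brightest probe set per gene, 25 with the replicate number as a block, 42 with the 3′ to 5′ covariate and 0 with the clock score (1508 at an unadjusted p under 0.05). Leaving out each liver gave 5 (without MTAP+/- replicate 1) to 21 (without MTAP+/- replicate 2). The count of called list genes, 0, was 1 under array weights, with the brightest probe set per gene, without cross-hybridising kinds, with the replicate block and with the 3′ to 5′ covariate, in each case Dnajb9. It was 0 to 1 on leaving out each liver: Per3 (1.17) without MTAP+/- replicate 4 and Dnajb9 without MTAP+/+ replicate 1. Under the clock score the sign reversed for Atf4 1439258_at (0.0314), Atf3 (-0.18), Atf5 (0.14), Sesn2 1425139_at (0.13) and Eif4ebp1 1434976_x_at (-0.0838), and under the 3′ to 5′ covariate for the last (-0.0193). Members of unchanged sign also moved with the clock score: Asns to 1.56 and 2.10, Trib3 to -0.80 and -1.20, Chac1 to -0.62, Atf4 1448135_at to -0.49, Sesn2 1451599_at to -0.57, Nupr1 to 0.59 and 0.49, and Ddit3 to -0.20 and -0.27; the adjusted p of each was 1.0. Leaving out each liver gave both signs for Ddit3 1417516_at (-0.16 to 0.0572) and 1443897_at (-0.18 to 0.0121), Trib3 1426065_a_at (-0.25 to 0.0464), Chac1 (-0.21 to 0.15), Nupr1 1419666_x_at (-0.0325 to 0.20) and Eif4ebp1 1434976_x_at (-0.0324 to 0.10). The cause was not tested. Deviations of same-numbered livers from their group means gave r of -0.07, 0.224, 0.00 and 0.227. MTAP+/- replicates 2 and 4 were closest to the MTAP+/+ liver of their own number, and replicates 1 and 3 were not. This does not settle whether the livers were paired, and the block is no evidence of pairing. Of 635 single-gene values over these settings, 612 kept direction and side of the threshold. Differences of 0.5 log2 were not called in the simulated data, and recovery by signal level or by spread was not simulated.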
